A study of Homo sapiens with 6 samples.

Results

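The 10 genes described here encode carriers that move proteins through the nuclear pore: the import receptors KPNB1, TNPO1, IPO4, IPO5, IPO7, IPO8, IPO9 and IPO11 and the export receptors XPO1 and CSE1L. Their members were every listed intron lying inside 1 of these genes on its strand, 257 of 241593 introns in all, and the spliced reads of each gene. The introns numbered 30 in IPO4, 28 in IPO5, 25 in IPO7, 25 in IPO8, 21 in IPO9, 32 in IPO11, 23 in XPO1, 26 in TNPO1, 25 in CSE1L and 22 in KPNB1. RNA came from K562, an established human myeloid leukaemia cell line with erythroid features. The cells were transduced with a control shRNA (Con_sh) or with 1 of 2 shRNAs against ZRSR2 (sh1 and sh2), and polyA-selected RNA was sequenced. Each of the 3 groups held 2 libraries, labelled experiment 1 and experiment 2. The labels gave no time after transduction, and no label told whether the replicate libraries had their own cultures, so that p-values may measure technical spread only.

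Receptors of the importin beta family bind a cargo, pass the pore by touching the phenylalanine-glycine repeats of its lining, and take or release the cargo under the control of the small GTPase Ran. Importins give up their cargo when they meet RanGTP in the nucleus, and exportins carry theirs out together with RanGTP and release it when the GTP is hydrolysed. ZRSR2 is a protein of the minor spliceosome, the machinery that removes U12-type introns, and it helps to define where such introns end. Which introns of the receptor genes belong to that class was not analysed here.

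Retention of an intron is given as the percentage of reads at its boundaries among boundary reads and spliced reads, each spliced read counted 2 times. Spliced reads over all introns came to 82986327 to 101120454 per library and boundary reads to 4387311 to 5199693. Retention pooled over all introns was 2.51% and 2.29% with Con_sh, 2.70% and 2.14% under sh1 and 2.92% and 2.48% under sh2, higher in experiment 1 than in experiment 2 within every group. ZRSR2, the targeted gene, had 27.8 and 23.4 spliced reads per 1000000 (CPM) with Con_sh, 10.6 and 10.7 under sh1 and 10.3 and 12.8 under sh2, so that the log2 fold change over both shRNAs was -1.21 ± 0.17 (SE, edgeR adjusted p 0.57, DESeq2 adjusted p 1.82e-06). Within experiments, the ZRSR2 level under sh1 was 38.1% and 45.6% of the control and under sh2 36.9% and 54.4%. All 13 K562 and erythroid markers on the list were detected, with a summed level of 4698 to 6430 CPM with Con_sh and 5904 to 20152 CPM in the knockdown libraries. The summed levels were 42.6 to 87.0 against 30.9 to 37.2 CPM for 6 lymphoid markers, 20.8 to 29.5 against 16.2 to 33.0 CPM for the 4 measured of 5 myeloid ones and 162 to 163 against 119 to 148 CPM for 5 stromal or epithelial ones, and no listed marker was at 0 in all libraries. The erythroid sum was highest in the experiment 1 library of sh2, led by the globin genes, and the part of this difference in the results below was not tested. In bulk RNA, fewer cells of a type and less RNA per cell cannot be told apart.

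Retention was called higher after ZRSR2 knockdown at 6 receptor introns in 5 of the 10 genes, counting all contrasts. An intron was tested where its boundary plus spliced reads averaged at least 20 per library, which left out 2 introns of IPO5 and 1 of TNPO1, and called at an adjusted p under 0.05. The SE and p-value of an intron rest on a spread that the model pooled over introns. They therefore do not give the spread between the libraries of that intron alone, and they depend on which other introns are in the fit. Over both shRNAs, 4 of the 254 tested receptor introns (1.57%) were more retained than with Con_sh, beside 0.33% of all tested introns: 2 in IPO4, 1 in IPO9 and 1 in IPO11. No receptor intron was called less retained, beside 0.0209% of all tested introns. For sh1 alone, 5 receptor introns rose, beside 0.292% of all tested introns, and these lay in IPO4, IPO9, IPO11, IPO5 and TNPO1. For sh2 alone, 3 rose, beside 0.266%, namely both IPO4 introns and the IPO9 intron. No receptor intron was called between sh1 and sh2, where 0.0343% of all tested introns were. By gene, 3 of the 10 receptors held a more retained intron over both shRNAs, beside 2.37% of all genes with a tested intron. These shares are not alike, as a gene with more tested introns has more chances to hold a called one. The receptors had 21 to 32 tested introns each, while the series had 134078 in all and 14067 genes with a tested one. The receptor genes were also chosen with earlier results of these data known.

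Taken as a group, the receptor introns had values centred near 0. The median log2 change in retention odds over both shRNAs was -0.02 over the 254 receptor introns and 0.08 over all 134078 tested introns, and 47.2% of receptor introns against 55.5% of all introns had a positive value. The median of all introns was 0.02 for sh1 and 0.16 for sh2, and that of the receptor introns -0.12 and 0.10. When boundary and spliced reads were each scaled to their own totals, the median of all introns for sh2 moved from 0.16 to 0.00. An unadjusted p under 0.05 was found for 20 receptor introns (7.87%) and for 4.44% of all tested introns. In 26 receptor introns (10.2%), retention in every knockdown library lay above both controls, beside 7.28% of all tested introns, and in 8 it lay below both, beside 4.11% of all tested introns.

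**Figure D1:**
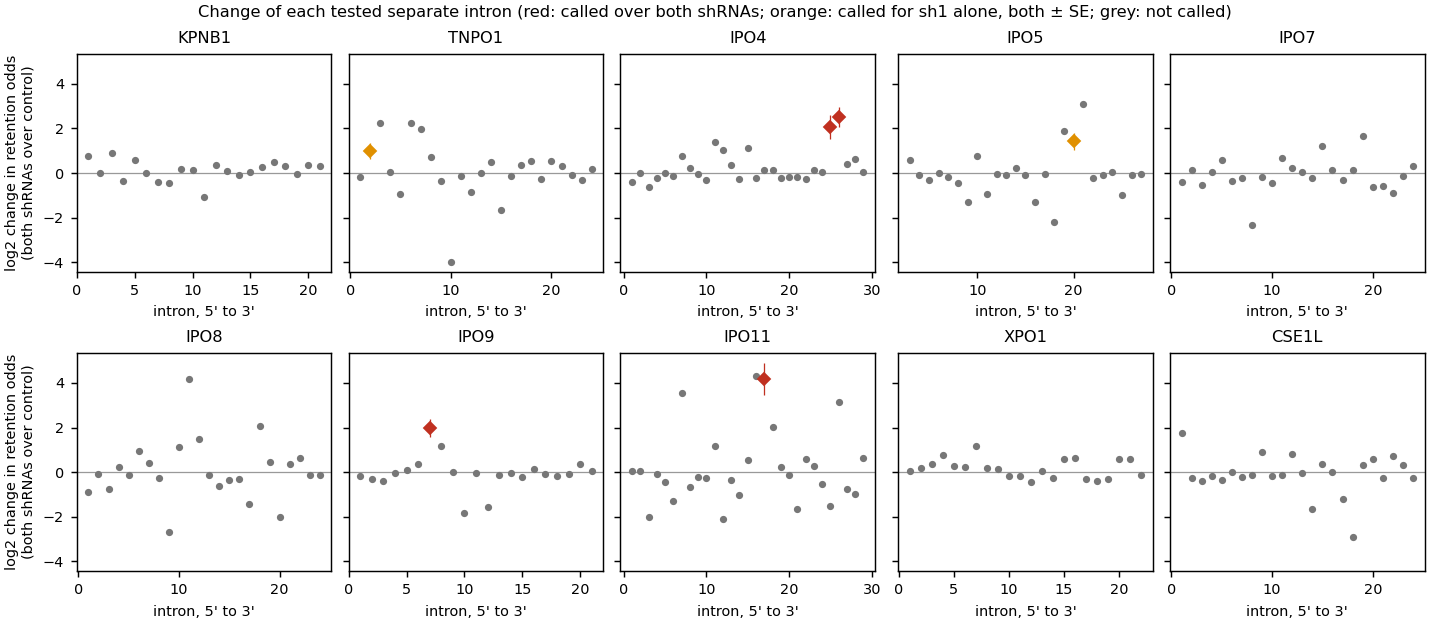
Log2 change in retention odds, both shRNAs over control, of each tested separate intron of the 10 receptor genes in transcript order. Red diamonds mark the 4 introns called over both shRNAs and orange diamonds the 2 called for sh1 alone, each with its SE, and grey points the introns that were not called.

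IPO4 (importin 4, a carrier of histones and ribosomal proteins) held both of the neighbouring introns called for sh2. The more retained one, at chr14:24181844-24181954 (GRCh38, minus strand), is 111 nt long and is the 26th of 29 separate introns counted from the 5′ end, where separate introns are those that overlap no other one counted. Its retention was 3.95% and 2.59% with Con_sh, 20.7% and 12.9% under sh1 and 22.3% and 10.4% under sh2. All 4 knockdown libraries lay above both controls, and sh1 and sh2 overlapped. The log2 change in retention odds over both shRNAs was 2.52 ± 0.43 (SE, edgeR adjusted p 4.05e-06), and sh1 and sh2 alone gave 2.57 ± 0.49 and 2.47 ± 0.49, with edgeR adjusted p of 9.81e-05 and 0.000423. Reads lay at both ends of the intron: 19 and 14 at the 5′ boundary with Con_sh against 96, 76, 104 and 53 in the knockdown libraries, and 21 and 23 at the 3′ boundary against 132, 103, 106 and 72. Every base of the intron was covered in each of the 6 libraries. Without the experiment 2 control library, the log2 change was 2.20 and the edgeR adjusted p 0.0533, and 0.101 for sh1 and 0.196 for sh2. Without the experiment 1 library of the shRNA itself, the edgeR adjusted p was 0.143 for sh1 and 0.805 for sh2.

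The intron just upstream in IPO4, at chr14:24182164-24182277 (114 nt, the 25th), is parted from it by an exon of 209 nt. Its retention was 0.47% and 0.70% with Con_sh, 2.23% and 1.91% under sh1 and 4.75% and 1.80% under sh2, so that all 4 knockdown libraries lay above the controls at low levels, and sh1 and sh2 overlapped. The log2 change over both shRNAs was 2.08 ± 0.54, with an edgeR adjusted p of 0.0318. For sh1 it was 1.80 ± 0.61 and not called (edgeR adjusted p 0.495), and for sh2 it was 2.37 ± 0.60, with an edgeR adjusted p of 0.0307. The call over both shRNAs rested on 5 to 12 boundary reads in each control library and 22 to 45 in each knockdown library. In 10 of 14 alternative settings this call was lost. It was lost on leaving out any of 4 libraries, the experiment 1 control (edgeR adjusted p 0.601), the experiment 2 control (0.435), the experiment 1 library of sh1 (0.113) or that of sh2 (0.701), and for sh2 likewise without either control (0.47 and 0.352) or its own experiment 1 library (1.0). The introns on either side of the pair were not called: retention of the 24th was 5.99% and 4.32% with Con_sh and 4.69% to 6.38% in the knockdown libraries, and that of the 27th 2.25% and 2.54% against 2.08% to 4.58%. The most retained IPO4 intron with Con_sh, at chr14:24187580-24188215 near the 5′ end, had 36.6% and 30.7% there, 22.0% and 35.1% under sh1 and 33.3% and 29.5% under sh2, with a log2 change of -0.25 ± 0.70.

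IPO9 (importin 9, which carries histones H2A and H2B and actin) had its called intron at chr1:201854924-201855123 on the plus strand, 200 nt long and the 7th of 21. Its retention was 5.99% and 5.19% with Con_sh, 24.9% and 11.8% under sh1 and 25.3% and 16.1% under sh2. All 4 knockdown libraries lay above the controls. The log2 change over both shRNAs was 1.98 ± 0.40, with an edgeR adjusted p of 0.000423, and it was 1.84 ± 0.46 for sh1 (edgeR adjusted p 0.0242) and 2.12 ± 0.46 for sh2 (0.00239). Without the experiment 2 control, the log2 change was 1.87 and the edgeR adjusted p 0.15, and with the test limited to introns whose covered fraction averaged at least 0.95 over the libraries it was 0.0659. The calls for each shRNA were lost without the experiment 1 control (edgeR adjusted p 0.237 for sh1 and 0.0581 for sh2), the experiment 2 control (0.51 and 0.196) or the shRNA's own experiment 1 library (1.0 and 0.81). In the control, the 5′ boundary carried more reads than the 3′ boundary, 49 and 54 against 25 and 23, and so it did in 3 knockdown libraries, with 119 against 69 in experiment 2 of sh1 and 161 and 118 against 151 and 81 under sh2. The experiment 1 library of sh1 had 148 against 164. With the 5′ boundary alone, an alternative added after the data were seen, the IPO9 intron was not called in any of these contrasts. Over both shRNAs its log2 change was then 1.67 with an edgeR adjusted p of 0.321, and for sh2 the adjusted p was 0.593. The 3′ boundary alone gave 2.47 over both shRNAs with an edgeR adjusted p of 0.000439. The 6th intron, 101 nt of exon away, stayed between 0.05% and 0.35% in every library. The 8th intron, beyond an exon of 59 nt, had 0.31% and 0.48% with Con_sh and 0.57% to 1.17% in the knockdown libraries, higher in all 4 but not called (log2 change 1.18 ± 0.62, edgeR adjusted p 1.0).

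IPO11 (importin 11, a carrier of ubiquitin-conjugating enzymes) had the called intron with the highest retention in any library, at chr5:62504701-62504857 on the plus strand, 157 nt long and the 17th of 29. It was almost fully spliced with Con_sh, with retention of 1.30% and 0.59%, and reached 40.0% and 17.4% under sh1 and 7.87% and 5.71% under sh2. Both sh1 libraries lay above both sh2 libraries, which in turn lay above the controls. The log2 change was 5.37 ± 0.78 for sh1, with an edgeR adjusted p of 1.05e-08, and 2.97 ± 0.83 for sh2, with an edgeR adjusted p of 0.107. Over both shRNAs it was 4.17 ± 0.72, with an edgeR adjusted p of 6.11e-06, and 3.61 with an adjusted p of 0.0598 without the experiment 2 control. The direct test of sh1 against sh2 gave a difference of 2.39 ± 0.66, with an edgeR adjusted p of 0.367. With reads scaled to their own totals, that difference was 2.57 with an edgeR adjusted p of 0.00761, and the sh2 change was 2.84 with an adjusted p of 0.0386. Boundary reads numbered 4 and 3 with Con_sh, 197 and 84 under sh1 and 20 and 20 under sh2, and each end of the intron carried them.

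The exons on either side of this IPO11 intron are short, 34 nt upstream and 41 nt downstream. Spliced reads across it came to 102% and 94.5% of the mean of the introns before and after it with Con_sh, 55.8% and 74.5% under sh1 and 87.0% and 82.9% under sh2. All 4 knockdown libraries lay below the controls on this measure, lowest under sh1. The called IPO5 intron also lay lower in each of them, at 112% to 116% against 117% and 121% with Con_sh. At the called introns of IPO4, IPO9 and TNPO1 the knockdown libraries overlapped with the controls on this measure. The 18th IPO11 intron, at chr5:62504899-62506240, had 1.03% and 0.59% with Con_sh, 3.23% and 1.71% under sh1 and 6.96% and 2.03% under sh2. The 16th intron, of 10542 nt, had no boundary read in either control library, and 0.36%, 0.36%, 1.39% and 0.49% in the knockdown libraries, on 2 to 4 reads. Neither was called (edgeR adjusted p 0.777 and 0.945). The gene LRRC70 lies within a later IPO11 intron, and its intron at chr5:62578936-62579400 is among the 32 counted for IPO11. That intron had a log2 difference between sh1 and sh2 of -6.37 ± 1.64, with an edgeR adjusted p of 0.198, on 0 boundary reads in both sh1 libraries and 11 and 1 under sh2. Without the experiment 2 library of sh2, that difference was -7.51 with an adjusted p of 0.0341.

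IPO5 (importin 5, a carrier of ribosomal proteins and histones) was called for sh1 alone, at chr13:98012343-98014041 on the plus strand, 1699 nt long and the 20th of 27. Its retention was 1.69% and 1.40% with Con_sh, 9.17% and 3.32% under sh1 and 3.72% and 2.10% under sh2, with all knockdown libraries above the controls. The log2 change was 1.94 ± 0.45 for sh1 (edgeR adjusted p 0.00611), 0.89 ± 0.45 for sh2 (1.0) and 1.42 ± 0.39 over both (0.0836). The sh1 call was lost without the experiment 1 library of sh1 (log2 change 1.14, edgeR adjusted p 1.0), without the experiment 1 control (0.0772) and without the experiment 2 control (0.445). The call over both shRNAs appeared when the experiment 2 library of sh1 or of sh2 was left out (edgeR adjusted p 0.00437 and 0.0411). Sh1 and sh2 differed by 1.05 ± 0.44, with an edgeR adjusted p of 1.0. The 21st intron, beyond an exon of 173 nt, had 0.08% and 0% with Con_sh, 0.16% and 0.27% under sh1 and 0.51% and 0.18% under sh2, again higher in every knockdown library and not called (adjusted p 0.439 over both).

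TNPO1 (transportin 1, which imports RNA-binding proteins such as hnRNP A1) was also called for sh1 alone, at chr5:72848499-72851243 on the plus strand, 2745 nt long and the 2nd of 24. Retention was 6.02% and 6.32% with Con_sh, 26.0% and 10.9% under sh1 and 9.16% and 6.31% under sh2. The sh1 libraries lay above the controls and the sh2 libraries overlapped with them. The log2 change was 1.66 ± 0.43 for sh1 (edgeR adjusted p 0.0369) and 0.33 ± 0.43 for sh2 (1.0), and sh1 and sh2 differed by 1.34 ± 0.43 (0.823, and 0.0389 with reads scaled to their own totals). The sh1 call was lost without the experiment 1 library of sh1 (0.90, edgeR adjusted p 1.0) and without either control library (adjusted p 0.504 and 0.398).

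The 2 ends of this TNPO1 intron differed. The 3′ boundary already carried 85 and 131 reads with Con_sh and 350 and 208 under sh1, with 110 and 96 under sh2. The 5′ boundary carried 11 and 16 reads with Con_sh, against 243 and 94 under sh1 and 30 and 21 under sh2. Per 100 spliced reads, the 5′ boundary had 1.47 in both control libraries, 28.9 and 7.63 under sh1 and 4.32 and 2.42 under sh2, above the controls in all 4 knockdown libraries. With the 5′ boundary alone, an alternative added after the data were seen, the change over both shRNAs was 2.25 with an edgeR adjusted p of 0.0263.

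TNPO1 has 2 start sites in RefSeq (GRCh38.p14), and the called intron comes right after the exon that both transcripts share. The 250 bases before each start are shown because spliced reads bear on which start was used. Capitals mark CCAAT and GGGCGG on either strand (ATTGG and CCGCCC in reverse); TATAAA and CCGGAA were searched in the same way, and the end of CCGCCC can share letters with CCAAT. The first start is at 72816661 and the second at 72848139.
TNPO1 first start, chr5:72816411-72816660, plus strand: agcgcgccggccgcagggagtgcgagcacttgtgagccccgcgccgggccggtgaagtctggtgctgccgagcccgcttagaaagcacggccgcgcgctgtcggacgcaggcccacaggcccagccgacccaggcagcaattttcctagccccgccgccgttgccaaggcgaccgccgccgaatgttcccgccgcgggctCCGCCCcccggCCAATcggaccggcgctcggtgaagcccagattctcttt
TNPO1 second start, chr5:72847889-72848138, plus strand: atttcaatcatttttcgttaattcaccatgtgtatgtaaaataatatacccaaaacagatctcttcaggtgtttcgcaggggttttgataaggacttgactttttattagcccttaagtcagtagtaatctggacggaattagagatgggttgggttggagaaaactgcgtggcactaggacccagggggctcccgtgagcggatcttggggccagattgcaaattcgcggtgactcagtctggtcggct
The upstream window had 72.0% G or C and held CCAAT and GGGCGG once each, and the downstream window had 45.2% and held none of the 4 motifs. Among 35116 windows of this length in the table, CCAAT was in 32.0%, GGGCGG in 42.6%, TATAAA in 10.7% and CCGGAA in 14.5%. They were in 5, 4, 2 and 2 of the 12 windows listed for the receptor genes, KPNB1 having none in the table.

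Spliced reads that join the first TNPO1 exon to the shared one were taken to be contained in the count of the shorter intron of the second start, chr5:72848252-72848384. In the receptor genes, an inner intron had at least the spliced reads of the outer one in 96 of 96 comparisons. The reads from the first exon came to 15.1% and 12.0% of that count with Con_sh, 13.1% and 11.8% under sh1 and 15.2% and 13.5% under sh2. The groups overlapped. On this reading, most reads in each library did not join the first exon, and whether all of these began at the downstream start was not tested. Retention of that shorter intron was 4.49% and 4.38% with Con_sh, 3.68% and 2.75% under sh1 and 5.29% and 4.25% under sh2, with a log2 change of -0.20 ± 0.40 over both shRNAs. XPO1 and IPO11 also have 2 listed starts, and there the outer intron held 99.2% to 99.9% and 99.3% to 100% of the spliced reads of the inner one. On the same reading, nearly all came from the upstream start. The 3rd TNPO1 intron had at most 0.65% retention in any library. The TNPO1 intron with the smallest p over both shRNAs was the 10th, at chr5:72882528-72883063, with 0.50% and 0.27% with Con_sh, 0% and 0.11% under sh1 and 0% in both sh2 libraries. Its log2 change of -3.98 ± 1.14 had an edgeR adjusted p of 0.115 and rested on 5 and 4 boundary reads with Con_sh, and without the experiment 2 library of sh1 it was -5.58 with an adjusted p of 0.042.

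**Figure D2:**
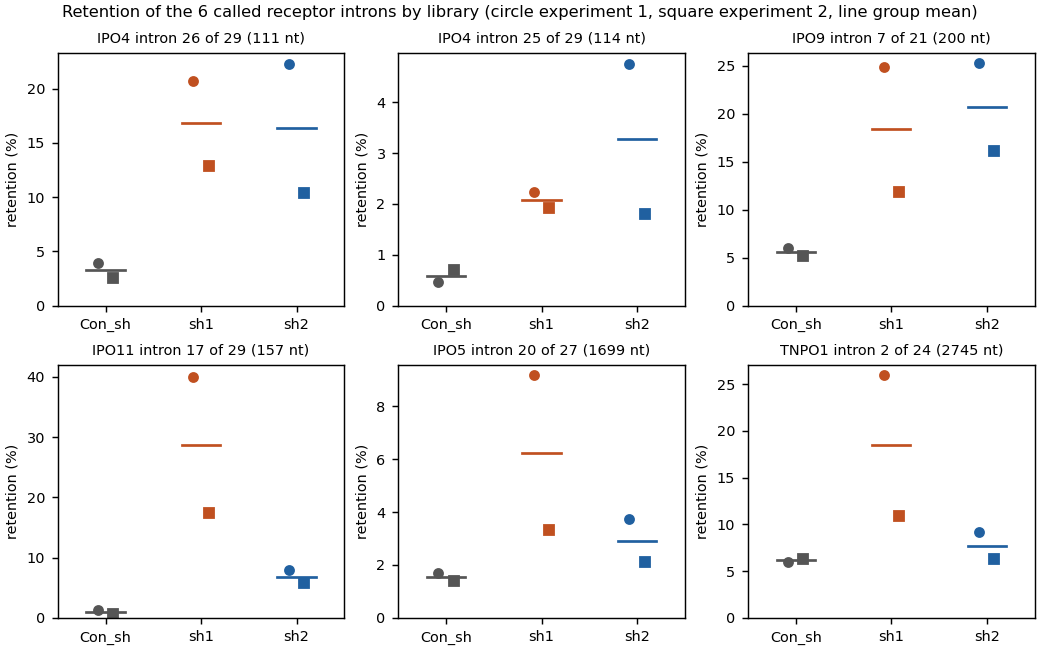
Retention in percent of the 6 called receptor introns in each library, with a circle for experiment 1, a square for experiment 2 and a line at the group mean. In the 26th intron of IPO4 and in IPO9 the sh1 and sh2 libraries overlapped, and in IPO5 they overlapped too (3.32% under sh1 against 3.72% under sh2), while the sh1 libraries of IPO11 and TNPO1 lay above the sh2 libraries.

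The 2 experiments differed in the size of these values. Under sh1 and under sh2, retention was higher in experiment 1 than in experiment 2 at 6 of 6 called introns, and with Con_sh at 4 of 6. Differences of the log2 odds from the control of the same experiment were, for the larger IPO4 intron, 2.65 and 2.47 under sh1 and 2.79 and 2.11 under sh2. For IPO9 they were 2.37 and 1.29 under sh1 and 2.41 and 1.81 under sh2. For IPO11 they were 5.49 and 4.93 under sh1 and 2.56 and 3.15 under sh2, which puts sh1 above sh2 within both experiments. The IPO5 intron had 2.53 and 1.27 under sh1 and 1.15 and 0.60 under sh2, and the TNPO1 intron 2.45 and 0.86 against 0.65 and 0.00. The smaller IPO4 intron had 2.18 and 1.44 under sh1 and 3.29 and 1.36 under sh2. In experiment 1 the ZRSR2 level relative to the control was lower and pooled retention was higher. The differences from the control were larger there too, except at the IPO11 intron under sh2. Under sh1 the ZRSR2 level itself was alike in both experiments (10.6 and 10.7 CPM), while the control had 27.8 and 23.4 CPM. The part of the ZRSR2 level and of pooled retention in these values was not tested.

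**Figure D3:**
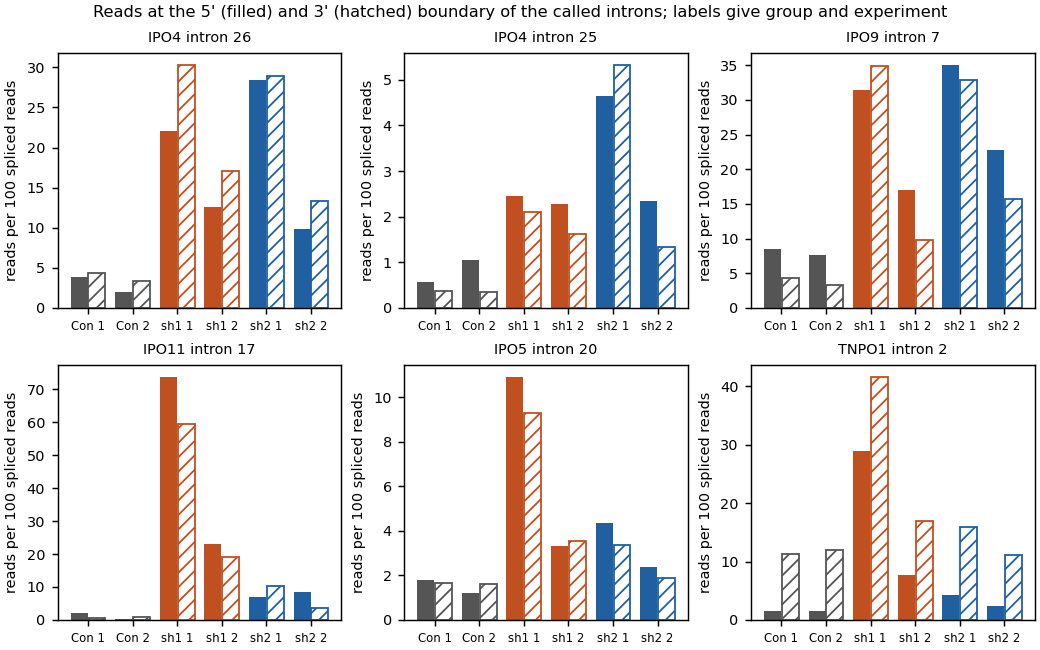
Reads at the 5′ boundary (filled bars) and the 3′ boundary (hatched bars) per 100 spliced reads in each library, for the 6 called introns. In IPO4, IPO9, IPO11 and IPO5 both bars were higher in every knockdown library than in the controls, and in TNPO1 the 3′ bar was already 11.3 and 12.0 with Con_sh where the 5′ bar was 1.47.

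The share of a gene's boundary reads that lay at its called intron varied between the genes. The IPO11 intron held 5.97% and 2.31% of the boundary reads over all separate IPO11 introns with Con_sh, 56.4% and 37.0% under sh1 and 17.2% and 18.7% under sh2. The TNPO1 intron held 23.5% and 23.3% with Con_sh, 57.3% and 39.2% under sh1 and 28.5% and 20.9% under sh2. Shares of the IPO5 intron were 12.2% and 10.8%, then 48.2% and 23.1%, then 19.3% and 15.1%. The IPO9 intron held 10.9% and 9.66% with Con_sh, 38.1% and 23.6% under sh1 and 33.8% and 23.7% under sh2. In IPO4 the larger called intron held 3.86% and 2.98% with Con_sh and 9.67% to 19.8% in the knockdown libraries, and the smaller one 0.48% to 3.69% in any library. Retention pooled over the remaining introns of a gene differed less. In IPO11 it was 0.65% and 0.71% with Con_sh, 0.79% and 0.82% under sh1 and 0.996% and 0.64% under sh2. In IPO9 it was 2.16% and 2.23%, then 2.02% and 1.88%, then 2.36% and 2.46%. As the called introns were picked by their values in the same libraries, a smaller difference in the rest follows in part from the choice. Of the 10 uncalled introns next to a called one, 4 had every knockdown library above both controls, beside 7.28% of all tested introns, and the smallest edgeR adjusted p among them in any contrast was 0.368.

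The 6 called introns were of unlike length. Those of IPO4, IPO9 and IPO11 were 111 to 200 nt, and those of IPO5 and TNPO1 1699 and 2745 nt. The median of the tested receptor introns was 1302 nt and that of all tested introns 1507 nt, and in IPO4, a gene of short introns, it was 116 nt. No other gene of the table overlapped any of the 6 on either strand. None of them was the most retained intron of its gene with Con_sh. That was the 13th in IPO9, with 14.1% and 16.7% with Con_sh and 12.5% to 16.1% in the knockdown libraries, and the 12th in IPO5, with 5.39% and 4.56% against 3.90% to 6.27%. The 10th intron of IPO11 had 4.85% and 2.25% with Con_sh against 1.91% to 4.08%. In TNPO1 it was the long first intron of the upstream start, with 18.0% and 23.3% against 16.6% to 20.9%, nearly all from its 3′ boundary, which the shorter intron shares. None of these was called.

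KPNB1 (importin beta 1, the carrier that works with importin alpha adaptors) had no called intron among 22. Its intron with the smallest p, the 1st at chr17:47650285-47650385, had 0.95% and 1.10% with Con_sh, 2.47% and 0.98% under sh1 and 2.76% and 1.27% under sh2, with 3 of the 4 knockdown libraries above both controls. Its log2 change was 0.76 ± 0.36, with an edgeR adjusted p of 1.0. IPO7 (a carrier of ribosomal proteins and, with KPNB1, of histone H1) had no called intron among 25, and its most retained one with Con_sh, of 84 nt at chr11:9433637-9433720, had 4.42% and 3.25% with Con_sh and 2.31% to 4.17% in the knockdown libraries. Its intron with the smallest p, at chr11:9420699-9423005, had 0% and 0.42% with Con_sh and 0% to 0.11% in the knockdown libraries, and its log2 change of -2.32 ± 0.89 turned to 2.71 without the experiment 2 control.

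IPO8 (a carrier linked to Argonaute and SMAD proteins) likewise had no called intron among 25. Its 18th intron, at chr12:30652290-30652966 on the minus strand, had 0.26% and 0.67% with Con_sh, 2.14% and 1.62% under sh1 and 2.31% and 2.65% under sh2, with all knockdown libraries above the controls. The log2 change of 2.07 ± 0.83 had an edgeR adjusted p of 0.792, on 1 and 4 boundary reads with Con_sh. Most of its reads lay at the 3′ boundary, 6 to 15 per knockdown library against 0 to 2 at the 5′ boundary. The last IPO8 intron was the most retained with Con_sh, with 13.0% and 16.2% there and 9.28% to 16.6% in the knockdown libraries.

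Among the export receptors, XPO1 (CRM1, the carrier for leucine-rich export signals) had no called intron among 23 and, over both shRNAs, no unadjusted p under 0.05. Its most retained intron with Con_sh, the 17th at chr2:61488772-61490641 on the minus strand, had 8.49% and 7.60% there, 6.58% and 6.23% under sh1 and 6.46% and 7.36% under sh2. This level came from the 3′ side, with 208 to 339 reads at the 3′ boundary and 3 to 14 at the 5′ boundary. The same was seen for the most retained KPNB1 intron with Con_sh, the 14th, with 117 to 190 reads at the 3′ boundary against 1 to 15. The XPO1 intron with the smallest p, the 20th, had 1.31% and 0.45% with Con_sh and 0.72% to 2.17% in the knockdown libraries (log2 change 0.59 ± 0.40, edgeR adjusted p 1.0). CSE1L (CAS, which returns importin alpha to the cytoplasm) had no called intron among 25. Its 1st intron, of 12029 nt, had 0.09% and 0.02% with Con_sh and 0.10% to 0.29% in the knockdown libraries, with a log2 change of 1.74 ± 0.68 and an edgeR adjusted p of 0.758. Its most retained intron with Con_sh, at chr20:49070298-49072567, had 10 to 40 spliced reads per library, and its groups overlapped.

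Spliced RNA of the receptors was compared through sums of spliced reads over separate introns. No receptor sum was called in any of the 4 contrasts. EdgeR called 0% of the 17584 gene sums over both shRNAs, although 1450 had an unadjusted p under 0.05, and DESeq2 called 1.04% of them and no receptor. The log2 fold changes over both shRNAs were 0.22 ± 0.17 for TNPO1, 0.17 ± 0.25 for IPO11, 0.17 ± 0.15 for IPO7, 0.10 ± 0.22 for CSE1L, 0.08 ± 0.14 for IPO8 and 0.05 ± 0.16 for XPO1. They were 0.04 ± 0.28 for IPO5, -0.02 ± 0.20 for KPNB1, -0.06 ± 0.19 for IPO4 and -0.08 ± 0.12 for IPO9. In all 10 genes the 4 knockdown libraries overlapped with the 2 controls. The share of all gene sums that overlapped in this way was not counted, so this does not set the receptors apart.

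The genes with called introns had these sums in each library. IPO4 had 174 and 220 CPM with Con_sh, 204 and 205 under sh1 and 143 and 207 under sh2. IPO9 had 180 and 178 CPM with Con_sh, 164 and 180 under sh1 and 164 and 168 under sh2, the narrowest range of the 10 genes. IPO11 had 62.4 and 97.9 CPM with Con_sh, 124 and 95.9 under sh1 and 61.1 and 87.6 under sh2, with a log2 difference between sh1 and sh2 of 0.56 ± 0.28 (edgeR adjusted p 0.911). TNPO1 had 189 and 236 CPM with Con_sh, 299 and 280 under sh1 and 180 and 242 under sh2, and both sh1 libraries lay above all 4 others (log2 difference of sh1 from sh2 0.46 ± 0.20, edgeR adjusted p 0.908). These were the largest differences between sh1 and sh2 among the 10 sums, and the introns called for sh1 in both genes lay higher under sh1 than under sh2.

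Per separate junction, a scale that allows genes to be compared, KPNB1 was the most abundant at 46.1 ± 7.5 CPM (SD, n = 2) with Con_sh. XPO1 followed with 18.7 ± 2.2, CSE1L with 16.0 ± 3.7, IPO7 with 12.1 ± 1.7, IPO5 with 9.64 ± 3.98, TNPO1 with 8.85 ± 1.37, IPO9 with 8.52 ± 0.05, IPO4 with 6.78 ± 1.12, IPO8 with 3.54 ± 0.06 and IPO11 with 2.76 ± 0.87. KPNB1 stood apart from XPO1 in every library, while the control libraries of XPO1 and CSE1L, of IPO7 and IPO5, of IPO5 and TNPO1 and of TNPO1 and IPO9 overlapped. In experiment 2 of the control the level was higher than in experiment 1 for 9 of these genes, IPO9 being the exception.

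**Figure D4:**
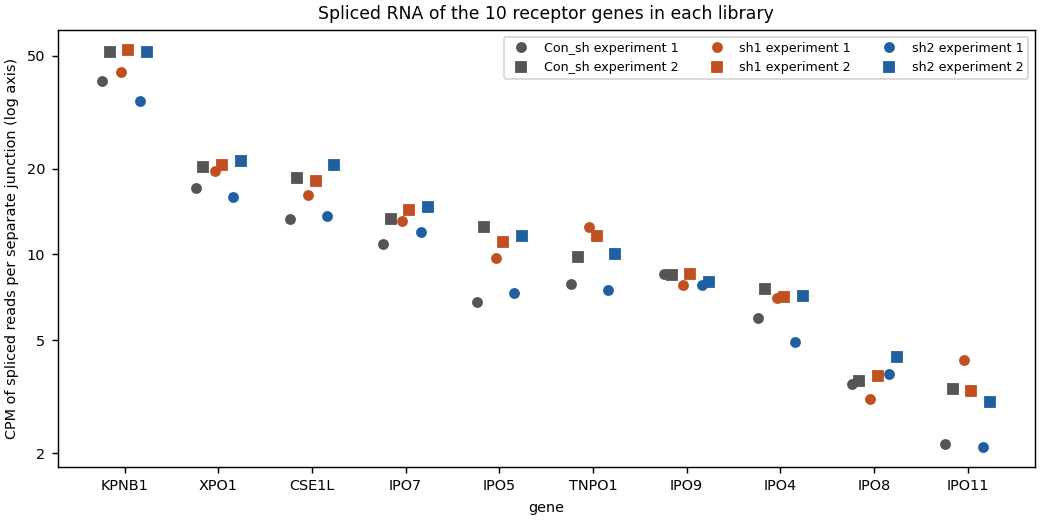
CPM of spliced reads per separate junction of the 10 receptor genes in each library, on a log axis, with genes ordered by their control mean. KPNB1 lies highest, at 46.1 with Con_sh, IPO8 and IPO11 lie lowest at 3.54 and 2.76, and in each gene the knockdown libraries overlap with the controls.

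Other genes of nuclear transport were read from lists of 57 genes. Of 9 further importin beta family receptors with a tested intron, 3 held a more retained intron over both shRNAs, beside 2.37% of all genes: TNPO2, the closest relative of TNPO1, XPO5, the exporter of microRNA precursors, and XPO7. Of the 202 introns of that list, 4 were called higher, beside 0.33% of all introns, and 0 lower, with a median log2 change of 0.14. The share by gene was again not matched for the number of introns per gene. The TNPO2 intron, at chr19:12719337-12720878, had 3.43% and 3.58% with Con_sh, 34.0% and 15.5% under sh1 and 21.7% and 12.4% under sh2 (log2 change 2.77 ± 0.41, edgeR adjusted p 3.07e-08). XPO5 held 2 neighbouring called introns, of which the 1762 nt one had 5.79% and 4.65% with Con_sh, 32.9% and 18.8% under sh1 and 37.1% and 24.1% under sh2 (log2 change 2.80 ± 0.44, edgeR adjusted p 2.47e-07). XPO5 spliced sums lay below the controls in all 4 knockdown libraries, with a log2 fold change of -0.57 ± 0.21 and adjusted p of 0.57 in edgeR and 0.277 in DESeq2.

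In the nuclear pore list, 6 of 30 genes held a more retained intron over both shRNAs, beside 2.37% of all genes, and 10 of 641 tested introns were called higher, beside 0.33% of all introns, with a median of 0.08. These genes were the scaffold subunits NUP107, NUP155, NUP160 and NUP205, the membrane subunit NUP210 and AHCTF1, which seeds pore assembly on chromatin. For this list too, the share by gene was not matched for the number of introns per gene. The larger AHCTF1 change was from 4.73% and 5.06% with Con_sh to 58.5% and 30.1% under sh1 and 43.7% and 27.0% under sh2 (log2 change 3.64 ± 0.41, edgeR adjusted p 8.17e-15). The NUP107 intron had 0% and 0.19% with Con_sh, 6.91% and 1.53% under sh1 and 4.93% and 1.09% under sh2 (log2 change 4.88 ± 0.54, edgeR adjusted p 1.01e-15). Over both shRNAs, AHCTF1 was the 1 gene of the lists whose spliced sum DESeq2 called, higher by 0.81 ± 0.18 (DESeq2 adjusted p 0.0218, edgeR adjusted p 0.57). For sh2 alone, the NUP107 sum was called lower by DESeq2 (log2 fold change -0.60 ± 0.14, DESeq2 adjusted p 0.031, edgeR adjusted p 0.57). DESeq2 called 68 of the 17584 sums lower for sh2. In the pore list, 1 intron was called lower, in NUP93, at 0.06% and 0.93% with Con_sh, 0% under sh1 and 0.12% and 0.19% under sh2, where a control library lay below both sh2 libraries. RAE1, an mRNA export factor at the pore, held an intron that differed between sh1 and sh2 by -2.30 ± 0.51 (edgeR adjusted p 0.029). The RAE1 sum was also called lower for sh2 by DESeq2 (log2 fold change -0.94 ± 0.20, DESeq2 adjusted p 0.0132, edgeR adjusted p 0.57). Between sh1 and sh2 its DESeq2 adjusted p was 0.0152. No gene among 7 importin alpha adaptors, 8 of the Ran cycle and 2 import adaptors held an intron called over both shRNAs. Beside the 0.33% of all introns called higher, the tested introns of these lists, 81, 90 and 25 in 6, 7 and 2 genes, were few. The absence of a call therefore does not set these lists apart. Their introns had median log2 changes of 0.14, 0.16 and -0.13. The sums with the smallest p in these 3 lists were KPNA3 (log2 fold change 0.32 ± 0.17), NUTF2 (-0.22 ± 0.13) and SNUPN (0.35 ± 0.17), each with an edgeR adjusted p over 0.6.

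The IPO4 intron at chr14:24181844-24181954 was the receptor intron with the smallest p over both shRNAs. The 5 introns of other genes with the likest log2 odds over the 6 libraries lay in BTN3A3, ZC3H8 (2 introns offset by 2 bases, with nearly the same retention), CNIH4 and ZPR1. Their Euclidean distances from it were 0.63 to 0.69. CNIH4 had 3.34% and 3.51% with Con_sh, 23.4% and 11.8% under sh1 and 23.3% and 12.4% under sh2. All 4 knockdown libraries lay above the controls and experiment 1 above experiment 2 within sh1 and sh2. As these introns were picked by their values in the same libraries, this shared pattern follows from the choice. The nearest, in BTN3A3, was not called over both shRNAs (log2 change 2.46, edgeR adjusted p 0.429).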

How the data were processed

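RNA was measured in 6 libraries of K562 cells, and the labels gave the group and experiment number of each. Per the file headers, the deposited tables hold counts of reads at both boundaries of each intron and of spliced reads, the covered fraction of the intron and a percent named MSI, called retention here. It equals 100 × boundary / (boundary + 2 × spliced) reads, with a largest deviation of 2.8e-14. Aligner, counting program and strand use are unknown (not given in the sources used here). Per the submitters' processing notes the build was hg19, but 95.6% of the intron positions lay inside a gene of the RefSeq table on GRCh38, against 62.6% and 62.9% after shifts of 100 kb, so names and positions refer to GRCh38.

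The genes, gene lists and rules were chosen with earlier results of these data known. All 10 members, the introns called in any contrast with their direct neighbours, and in each gene the intron with the smallest p and the one most retained in the control were named. Introns with a mean of at least 20 boundary plus spliced reads were tested with the quasi-likelihood test of edgeR 4.0.16 (R 4.3.3) on boundary and spliced counts paired within a library, a factor of the model, and Benjamini-Hochberg adjustment over all 134078 introns at 0.05. Gene counts were not used as such: a gene's sum took the spliced reads of its non-overlapping introns, and sums were filtered with filterByExpr, scaled by TMM and tested with edgeR and, as an alternative, DESeq2 1.42.0. The code was tested on simulated data. Deviations of same-numbered experiments from their group means correlated at 0.30, 0.32 and 0.49 over gene sums. Over the retention of single introns the correlations were 0.05, 0.11 and 0.10, weak but also positive. Pooled retention was higher in experiment 1 within every group.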

Additional observations from a re-analysis of the deposited data

How the results depend on the processing

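Each group holds 2 libraries. All 6 called introns kept their direction in every alternative run for the contrasts in which they were called, while many calls were lost. Over both shRNAs, 4 receptor introns became 2 where introns had to be covered to at least 0.95 and 0 where the smaller boundary count was doubled, which also widens the spread; leaving out 1 library gave 0 to 5, with 0 without the experiment 2 control. For sh1, 5 became 2 at a minimum of 50 reads, 1 under the covered fraction, 0 with the doubled count and 3 with either boundary alone (added after seeing the data), and 1 to 5 without 1 library. For sh2, 3 became 0 under the covered fraction, 0 with the doubled count and 0 with the 5′ boundary alone, and 0 to 3 without 1 library. Between sh1 and sh2, 0 became 2 when reads were scaled to their own totals (IPO11 and TNPO1), 2 with the replicate block, and 0 to 1 without 1 library. Over both shRNAs, either boundary alone gave 3 receptor introns, and with the 5′ boundary TNPO1 was among them while IPO9 was lost. The cause was not tested.

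A block on the experiment number raised the introns called more retained over both shRNAs from 443 to 599 among all tested introns. In the receptors it gave 5, 5 and 4 more retained introns over both shRNAs, for sh1 and for sh2, and called no receptor sum. Neither did any other alternative, DESeq2 included. Among uncalled values, leaving out 1 library changed the sign of the XPO1 intron at 61482540 (-0.11 to 1.44) and the IPO7 intron at 9420699 (-3.45 to 2.71). It did the same for the log2 fold changes of the sums of IPO4 (-0.21 to 0.13), IPO5 (-0.32 to 0.55), IPO11 (-0.11 to 0.54), XPO1 (-0.058 to 0.18), CSE1L (-0.11 to 0.37) and KPNB1 (-0.17 to 0.17). Introns with few boundary reads limit what the depth can show.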
